A study of Mus musculus with 4 samples.

Results

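The 38 genes described here are markers of the cells that build brain blood vessels, read in ribosome-bound RNA that was pulled from neurons of the hippocampal area CA1. They form a list of gene symbols, each matched to a row of the table. Of the 38, 30 mark endothelial cells, which line the vessel, and 8 mark mural cells, the pericytes and smooth muscle cells that wrap it (Pdgfrb, Rgs5, Abcc9, Vtn, Anpep, Acta2, Tagln and Myh11). All 38 were among the 28193 genes of the deposited table, and all 38 had more than 5 counts in every library and so were among the 22338 genes tested.

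fosTRAP-seq sequences the mRNAs that sit on ribosomes of neurons which expressed Fos in a tagging window. Male C57BL/6J mice aged 3 to 5 months carried 2 viral vectors in CA1. One vector holds a tamoxifen-dependent Cre recombinase (ERT2-Cre-ERT2) under the c-Fos promoter, and the other holds an HA-tagged ribosomal protein, HA-mRpl22, that Cre switches on. Every mouse received 4-hydroxytamoxifen and was sleep deprived for 5 h on day 0, the tagging day. On day 7 the sleep deprived (SD) mice were kept awake for 5 h again and the non-sleep deprived (NSD) mice were not, and every library was made from a pool of CA1 tissue of 5 mice, 2 such pools in each group. The labels name the dorsal hippocampus of cFos-Cre:Ribotag mice instead, and put NSD library 1 and SD library 1 in batch 1, and NSD library 2 and SD library 2 in batch 2. The comparison asks what a second bout of sleep loss changes in tagged neurons. Vascular cells are not the cells that the tag was built for. No unenriched CA1 library was analysed here, and which cells the vessel RNA of these libraries came from was not tested.

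Endothelial cells of the brain form the blood-brain barrier. Claudin and occludin seal the clefts between them, transporters in their membranes carry glucose and lipids inward and drugs outward, and the receptors for VEGF and the angiopoietins keep them alive and quiescent. ETS and SOX factors of the endothelial lineage, among them Erg, Sox17 and Sox18, maintain this identity. Pericytes are held at the capillary by PDGF-B acting on Pdgfrb, whereas smooth muscle cells with contractile proteins surround arteries and arterioles.

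ETS and SOX factors bind short motifs, so the promoters of the members were searched for them, and 4 promoters of receptor genes that the later results turn on are shown. RefSeq promoters on build GRCm38.p6 were given for 25 of the 38 members, 20 endothelial and 5 mural (none for Ptprb, Ly6a, Pecam1, Tagln, Myh11, Sox18, Vwf, Cdh5, Pdgfrb, Sox17, Nos3, Esam or Podxl). The 250 bases before the start site are printed 5′ to 3′ on the strand of the gene, with capitals for matches to the ETS letters CNGGAAG and the SOX letters ACAATNG on either strand.
Tie1: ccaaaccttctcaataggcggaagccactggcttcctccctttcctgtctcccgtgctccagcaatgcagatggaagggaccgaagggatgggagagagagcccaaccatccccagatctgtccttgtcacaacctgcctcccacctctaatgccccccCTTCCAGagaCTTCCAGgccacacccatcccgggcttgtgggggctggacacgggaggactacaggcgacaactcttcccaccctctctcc
Tek: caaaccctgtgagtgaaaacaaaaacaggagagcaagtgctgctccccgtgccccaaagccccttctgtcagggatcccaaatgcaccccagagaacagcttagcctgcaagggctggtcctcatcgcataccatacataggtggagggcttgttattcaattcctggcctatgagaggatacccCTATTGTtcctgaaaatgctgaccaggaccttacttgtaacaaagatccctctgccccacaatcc
Flt1: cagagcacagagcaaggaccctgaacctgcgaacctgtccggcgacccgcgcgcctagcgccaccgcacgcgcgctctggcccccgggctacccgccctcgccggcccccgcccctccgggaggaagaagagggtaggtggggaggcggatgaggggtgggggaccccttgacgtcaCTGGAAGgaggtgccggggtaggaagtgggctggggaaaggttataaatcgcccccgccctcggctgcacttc
Robo4: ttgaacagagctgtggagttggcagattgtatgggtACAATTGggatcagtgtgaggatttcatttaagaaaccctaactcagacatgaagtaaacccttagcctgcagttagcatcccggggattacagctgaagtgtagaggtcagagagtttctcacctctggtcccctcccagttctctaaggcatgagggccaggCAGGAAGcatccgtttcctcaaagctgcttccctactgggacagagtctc
The Tie1 window is chr4:118489850-118490099 on the minus strand and held 2 ETS matches, which begin at -91 and -81 from the start. The Tek window, chr4:94739039-94739288 on the plus strand, held no ETS match and 1 SOX match at -65. In Flt1 (chr5:147726012-147726261, minus strand) 1 ETS match began at -73. Robo4 (chr9:37401722-37401971, plus strand) held 1 ETS match at -50 and 1 SOX match at -214. Of the 20 endothelial genes, 9 held the ETS letters in any of their promoters (Adgrf5, Adgrl4, Egfl7, Emcn, Erg, Flt1, Itm2a, Robo4 and Tie1), compared with 0 of the 5 mural genes. Counted by promoter and not by gene, 26.6% of all 32851 promoters, which belong to 27025 genes, held them. The shares of members and of all promoters are thus in unlike units. The SOX letters were in Robo4 and Tek only among the 25, and in 6.91% of all promoters. The letters TATAAA were in Erg, Flt1, Ly6c1 and Vtn and in 12.4% of all promoters. The CArG box, which smooth muscle genes use, was searched only as the exact letters CCWWWWWWGG (W is A or T). These exact letters were in none of the 25 and in 1.47% of all promoters, and Acta2 was the only smooth muscle gene among the 25. All the matches above describe letters in a short window, and in the 4 promoters shown they do not overlap each other or a TATAAA match.

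The vascular marker genes on the list were a small part of every library. The 38 genes took 0.0233% of all counts of NSD library 1 (Wilson 95% interval 0.0231% to 0.0235%) and 0.0274% of those of NSD library 2 (0.0272% to 0.0277%). Their share was 0.0201% for SD library 1 (0.0199% to 0.0203%) and 0.0152% for SD library 2 (0.0150% to 0.0153%). The intervals cover counting error only. Each SD library had a lower share than either NSD library. In these bulk samples, fewer cells of a type and less RNA per cell cannot be told apart. Library totals ran from 153511705 to 195910235 counts, so that even the least abundant member, Nostrin in NSD library 1, had 45 counts (exact 95% Poisson interval 32.8 to 60.2) and the most abundant, Rgs5 in NSD library 2, had 5259.

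A level in CPM is a gene's count relative to the library total after edgeR's TMM scaling, and levels of different genes are compared per kilobase (kb) of exon. Per kb, the highest mean levels in NSD were those of Rgs5, a regulator of G-protein signalling in pericytes, and the secreted protein Vtn, at 5.06 and 5.05 CPM per kb. Cldn5, the main claudin of the barrier, followed at 4.49 CPM per kb, then the glucose transporter Slc2a1 at 3.93 CPM per kb and the sialomucin Podxl at 2.31 CPM per kb. The lowest were Acta2 at 0.155 CPM per kb, Emcn at 0.0941 CPM per kb and Nostrin at 0.0440 CPM per kb. For scale, the neuronal kinase gene Camk2a stood at 448 CPM per kb and the CA1 pyramidal marker Wfs1 at 39.4 CPM per kb in NSD. These markers of the labelled cells were present and the vascular genes were far below them. Markers of other brain cells were abundant too. Over the libraries, 12 astrocyte markers summed to 3552 to 4209 CPM and 12 oligodendrocyte markers to 1672 to 2008 CPM. The 9 CA1 pyramidal neuron markers summed to 6225 to 6846 CPM. The plot of the members by library shows the range of their levels and the order of the libraries within each gene.

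**Figure D1:**
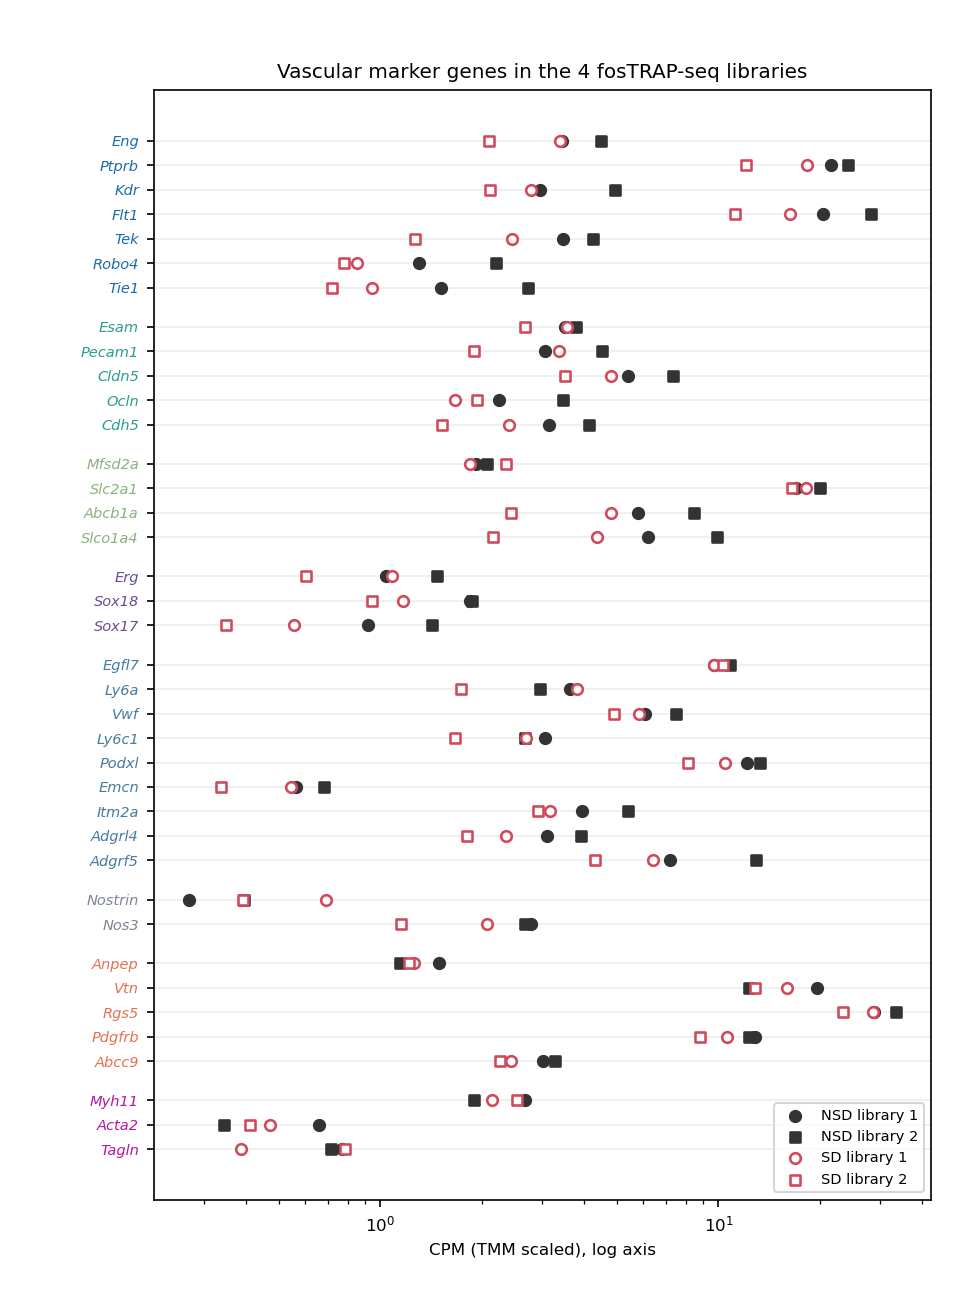
Level of each of the 38 genes in the 4 libraries, in TMM-scaled CPM on a log axis, grouped by role; filled black symbols are NSD, open red symbols SD, circles library 1 (batch 1) and squares library 2 (batch 2). Among the endothelial genes the black square (NSD library 2) is the highest symbol in 25 of 30 rows and the red square (SD library 2) the lowest in 26 of 30, an order that the smooth muscle genes do not show.

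Most endothelial genes were read at lower levels in SD than in NSD, but none passed edgeR's test with condition as the only term. Their median log2 fold change was -0.61, against -0.02 over all genes tested and 0.02 over the protein-coding genes, and 28 of the 30 were below 0. A gene was called at a Benjamini-Hochberg adjusted p under 0.05 over all genes tested and a fold change over 1.2. By this rule edgeR's quasi-likelihood test called 0 of the 38 members lower and 0 higher, where it called 2.33% of all genes lower and 0.77% higher, although 18 endothelial genes and 1 mural gene were lower at an unadjusted p under 0.05, as were 2732 of the 22338 genes and 895 of the 15551 protein-coding genes. Adding the batch number as a block, the test called 17 of the 30 endothelial genes and 1 of the 8 mural genes lower and none higher. The same fit called 8.47% of all genes lower and 2.99% higher, and 3.29% of the 15551 protein-coding genes lower and 3.77% higher. DESeq2, with condition only, called 10 endothelial genes lower, 0 mural genes lower and none of the 38 higher, beside 5.8% of all genes lower and 3% higher.

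Counted without a test, 21 of the 30 endothelial genes and 3 of the 8 mural genes had each SD library below each NSD library. The same held for 27.5% of all genes and 20% of the protein-coding genes. In the other direction the count was 0 of 38 members, where 22% of all genes and 26.5% of the protein-coding genes had each SD library above each NSD library. The remaining 14 members overlapped between groups. The test without the block depended on the library: it called 18 endothelial genes lower without SD library 1, 3 without NSD library 1, 4 without SD library 2 and 0 without NSD library 2, and 2 mural genes lower without SD library 1 and 0 without any of the others. In the same order of fits, 1955, 78, 775 and 446 of all 22338 genes were called lower, so the count over all genes moved too. An exact two-sided permutation test of 2 libraries against 2 cannot go below p = 0.333.

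**Figure D2:**
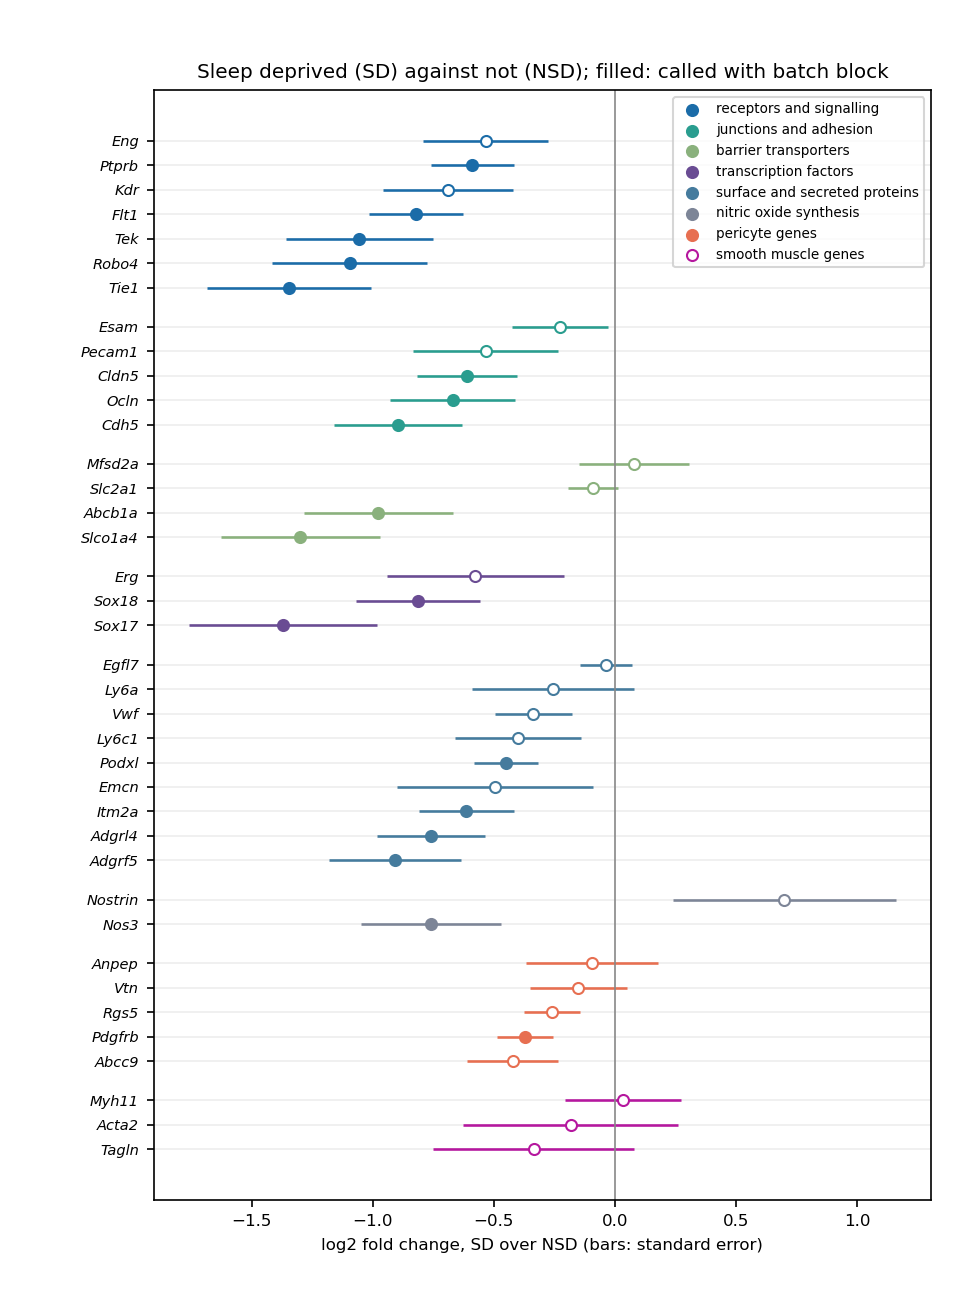
Log2 fold change of SD over NSD for each of the 38 genes from edgeR's quasi-likelihood fit with condition only, with its standard error, grouped and coloured by role. Filled points are the 18 genes called lower with the batch number as a block; the lowest values are those of Sox17 (-1.37), Tie1 (-1.35) and Slco1a4 (-1.30), and Nostrin (0.70) is the highest.

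In all 7 receptor and signalling genes the SD libraries were both below the NSD libraries. The same held for 27.5% of all genes and 20% of the protein-coding genes. Of the 7, 5 were called lower with the block, beside 8.47% of all genes and 3.29% of the protein-coding genes. These shares also stand beside the counts of the other role groups below. The median log2 fold change of the 7 receptor and signalling genes was -0.82. On build GRCm39, that of the counts, Tie1 lies at chr4:118328388-118347259 on the minus strand, Tek at chr4:94627526-94763214 on the plus strand and Flt1 at chr5:147498414-147662822 on the minus strand. Tie1, the orphan partner of the angiopoietin receptor, had 1.51 and 2.73 CPM in NSD libraries 1 and 2 and 0.946 and 0.719 CPM in SD libraries 1 and 2. NSD library 2 stood well above the others and the groups did not overlap. The log2 fold change was -1.35 (standard error 0.34; edgeR quasi-likelihood adjusted p = 0.0720, and 0.0111 with the block). Tek, the angiopoietin receptor Tie2, was at 3.47 and 4.26 CPM in NSD and 2.45 and 1.27 CPM in SD, or -1.06 as a log2 fold change (standard error 0.30; adjusted p = 0.0988 in edgeR, and 0.00888 with the block). Here it was SD library 2 that stood apart. The log2 fold change of Tek was -0.64 when that library was left out and -1.61 when SD library 1 was. Ptprb, the phosphatase that acts on Tek, had 21.5 and 24.1 CPM in NSD and 18.3 and 12.1 CPM in SD, a log2 fold change of -0.59 (adjusted p = 0.101 in edgeR, and 0.00688 with the block). Ptprb was at -0.31 without SD library 2 and -0.92 without SD library 1, and Tie1 at -0.86 without NSD library 2.

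Flt1 and Kdr are the receptors for VEGF-A, Flt1 (VEGFR1) binding it tightly with weak signalling and Kdr (VEGFR2) carrying most of the signal. Flt1 was read at 20.3 and 28.3 CPM in NSD and at 16.3 and 11.2 CPM in SD. SD library 2 was the lowest and the groups did not overlap, with a mean of 24.3 ± 5.61 CPM in NSD and 13.7 ± 3.62 CPM in SD (s.d., n = 2 libraries). The log2 fold change was -0.82 (standard error 0.19; adjusted p = 0.0611 in edgeR, 0.00426 with the block, and 0.000705 by DESeq2). Kdr had 2.96 and 4.94 CPM in NSD and 2.78 and 2.11 CPM in SD, with NSD library 1 only just above SD library 1, and it was not called (-0.69, edgeR adjusted p = 0.205, and 0.0749 with the block). Robo4, which stabilises vessels, was at 1.303 and 2.20 CPM against 0.852 and 0.783 CPM, with the SD libraries close together (-1.10, edgeR adjusted p = 0.104, and 0.0250 with the block). Eng, a co-receptor for TGF-beta family ligands, was not called (-0.53, edgeR adjusted p = 0.313, and 0.116 with the block), and 860 of its exon bases lie opposite Fpgs, a gene with 91.99% of its count. Without NSD library 2 the log2 fold change of Robo4 was -0.67 and that of Kdr -0.28. Without SD library 1 Kdr was at -0.90 and Eng at -0.93, and without SD library 2 Eng was at -0.21.

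Of the 5 junction and adhesion genes, 3 were called lower with the block and the other two overlapped between groups. Cdh5, the cadherin of endothelial adherens junctions, was at 3.16 and 4.14 CPM in NSD and 2.41 and 1.52 CPM in SD, in 2 separate ranges with a log2 fold change of -0.90 (adjusted p = 0.104 in edgeR, and 0.0169 with the block). Cldn5 had 5.404 and 7.32 CPM in NSD and 4.81 and 3.51 CPM in SD, with the library 1 pair close together, and a log2 fold change of -0.61 (adjusted p = 0.146 in edgeR, and 0.0366 with the block). Ocln, occludin, was the only one of the 3 with its lowest value in SD library 1, at 2.24 and 3.48 CPM in NSD and 1.66 and 1.93 CPM in SD (-0.67, edgeR adjusted p = 0.202, and 0.0445 with the block). Pecam1, the adhesion molecule CD31, had 3.07 and 4.54 CPM in NSD and 3.36 and 1.89 CPM in SD, so that SD library 1 lay between the NSD libraries. Its log2 fold change of -0.53 and that of the adhesion molecule Esam, -0.23, were not called in any of the 3 tests. Left without NSD library 2, Ocln was at -0.32 and Cldn5 at -0.38, and without SD library 2 Cldn5 was at -0.39 and Cdh5 at -0.59. Pecam1 was at -0.16 and Esam at -0.02 without SD library 2, and without SD library 1 Pecam1 was at -1.01 and Esam at -0.45.

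Of the 4 transporters, 2 were called lower with the block. Slco1a4, an organic anion transporter of brain endothelium, had 6.17 and 9.92 CPM in NSD and 4.38 and 2.16 CPM in SD, with SD library 2 lowest and NSD library 2 highest. Its log2 fold change was -1.30 (standard error 0.33; adjusted p = 0.0720 in edgeR, 0.00602 with the block, and 0.170 by DESeq2). Abcb1a, the drug pump P-glycoprotein, was at 5.78 and 8.46 CPM against 4.81 and 2.43 CPM, in the same order of libraries, with a log2 fold change of -0.98 (adjusted p = 0.123 in edgeR, and 0.0165 with the block). Without SD library 2 it was -0.55 and without SD library 1 -1.55. Abcb1a has a close paralog, Abcb1b, so its share of the reads rests on the model that split them. The other two transporters overlapped between groups. Slc2a1, the GLUT1 glucose transporter, had 19.9 CPM in NSD library 2, 18.2 CPM in SD library 1 and 16.5 CPM in SD library 2, with NSD library 1 between the SD libraries, and a log2 fold change of -0.09 (95% confidence interval -0.33 to 0.15; edgeR adjusted p = 0.727), and without NSD library 2 it was 0.03. Mfsd2a, which carries lysophospholipids with omega-3 fatty acids, was at 1.91 and 2.06 CPM in NSD and 1.84 and 2.36 CPM in SD (0.08, interval -0.44 to 0.60; -0.10 without SD library 2). The interval of Abcb1a, -1.68 to -0.28, overlapped both of these, and that of Slco1a4, -2.05 to -0.55, did not. The differences between the transporters were not tested. Slco1a4 was at -0.86 without SD library 2.

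Among the 3 transcription factors, Sox17 and Sox18 were called lower with the block. Sox17 (chr1:4561154-4567578, minus strand, GRCm39), which marks arterial endothelium and supports the barrier, had the lowest log2 fold change of all members: 0.917 and 1.42 CPM in NSD and 0.553 and 0.349 CPM in SD gave -1.37 (standard error 0.39; adjusted p = 0.0955 in edgeR, and 0.0261 with the block). Neither group's range reached the other's, and leaving out 1 library at a time gave -1.74 to -1.02. Sox18 was at 1.84 and 1.87 CPM in NSD, nearly the same in both, and 1.17 and 0.941 CPM in SD, a log2 fold change of -0.81 (adjusted p = 0.125 in edgeR, and 0.0381 with the block). Erg, the ETS factor, was at 1.04 and 1.47 CPM against 1.08 and 0.603 CPM. SD library 1 lay inside the NSD range and Erg was not called (-0.58, edgeR adjusted p = 0.465; -1.06 without SD library 1 and -0.20 without SD library 2).

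Among the 9 genes for surface and secreted proteins, 4 were called lower with the block: Adgrf5, Adgrl4, Itm2a and Podxl. The adhesion GPCR Adgrf5 was at 7.19 and 12.9 CPM in NSD and 6.39 and 4.31 CPM in SD. NSD library 2 carried most of this difference, and the log2 fold change of -0.91 (adjusted p = 0.112 in edgeR, and 0.0211 with the block) was -0.43 without it. Adgrl4, another adhesion GPCR of vessels, had 3.11 and 3.92 CPM against 2.36 and 1.80 CPM (-0.76, edgeR adjusted p = 0.104, and 0.0218 with the block). For the membrane protein gene Itm2a the values were 3.95 and 5.39 CPM against 3.17 and 2.93 CPM (-0.61, adjusted p = 0.126 in edgeR, and 0.0292 with the block), and for Podxl 12.1 and 13.3 CPM against 10.5 and 8.15 CPM (-0.45, adjusted p = 0.107 in edgeR, and 0.0166 with the block). The groups were apart for all 4. Itm2a was at -0.37 without NSD library 2, and Podxl at -0.27 without SD library 2.

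The other 5 genes for surface and secreted proteins were not called in any of the 3 tests. Vwf, the clotting factor that endothelium stores, was at 6.05 and 7.51 CPM in NSD and 5.83 and 4.91 CPM in SD (-0.34). Egfl7, a secreted protein of endothelial matrix, had 9.71 and 10.9 CPM against 9.72 and 10.3 CPM, so that all 4 libraries lay close together, with a log2 fold change of -0.04 (95% confidence interval -0.28 to 0.21) that was 0.05 without NSD library 2 and 0.01 without SD library 1. Ly6c1 (-0.40) and Ly6a (-0.26) overlapped between groups, and both belong to a family of near copies whose reads the counting may split. Ly6a was at 0.22 without SD library 2 and at -0.93 without SD library 1, and Ly6c1 at -0.08 and -0.79 in the same order. The sialomucin gene Emcn was read at 0.338 to 0.681 CPM, with a log2 fold change of -0.50 and the groups just apart. Emcn was at -0.18 without SD library 2 and at -0.87 without SD library 1. Vwf was at -0.17 without NSD library 2.

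Of the 2 genes of nitric oxide synthesis, 1 was called lower with the block. Nos3, the endothelial nitric oxide synthase, had 2.78 and 2.68 CPM in NSD and 2.07 and 1.15 CPM in SD, a log2 fold change of -0.76 (adjusted p = 0.196 in edgeR, and 0.0274 with the block), with SD library 2 the lowest. It was -0.39 without that library and -1.24 without SD library 1. Nostrin, which traffics that enzyme, had 0.271 and 0.395 CPM in NSD and 0.692 and 0.391 CPM in SD. Only SD library 1 stood above the rest, and the log2 fold change of 0.70 (95% confidence interval -0.35 to 1.75; edgeR adjusted p = 0.482) was 0.23 without it. Nos3 shares exon bases on opposite strands with Atg9b, a gene of 201% of its count, and Nostrin with Spc25, of 88.9% of its count, and the sources used here do not state whether counting used the strand.

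Of the 5 pericyte genes, 1 was called lower with the block. Pdgfrb, the PDGF receptor that pericytes depend on, was at 12.8 and 12.3 CPM in NSD and 10.6 and 8.81 CPM in SD, a narrow NSD range above both SD libraries. Its log2 fold change was -0.37 (standard error 0.12; adjusted p = 0.124 in edgeR, 0.0189 with the block, and 0.0844 by DESeq2), and it was -0.51 without SD library 1 and -0.23 without SD library 2. Rgs5 had 28.8 and 33.5 CPM in NSD and 28.7 and 23.3 CPM in SD, so that the library 1 pair was almost equal (-0.26, edgeR adjusted p = 0.268, and 0.0976 with the block). It was -0.11 without SD library 2, and -0.42 and called without SD library 1. Abcc9, a subunit of the potassium channel that pericytes use to sense metabolism, was at 3.02 and 3.28 CPM against 2.43 and 2.26 CPM, apart but not called (-0.42, edgeR adjusted p = 0.271, and 0.137 with the block). Vtn had 19.6 and 12.3 CPM in NSD and 15.97 and 12.8 CPM in SD, with both SD libraries inside the NSD range (-0.15), and its log2 fold change was 0.25 without NSD library 1. The peptidase gene Anpep also overlapped (-0.10, and 0.14 without NSD library 1).

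The 3 smooth muscle genes overlapped between groups and none was called. Myh11, the heavy chain of smooth muscle myosin, had 2.68 and 1.89 CPM in NSD and 2.14 and 2.54 CPM in SD, a log2 fold change of 0.03 (95% confidence interval -0.52 to 0.58) that was -0.03 with library totals in place of TMM, -0.20 without NSD library 2 and -0.09 without SD library 2. Acta2, smooth muscle actin, was at 0.344 to 0.657 CPM (-0.18, and 0.39 without NSD library 1), and Tagln, transgelin, at 0.387 to 0.788 CPM (-0.34, and 0.09 without SD library 1). Both share exon bases on opposite strands with more abundant genes, Acta2 with Stambpl1 and Tagln with Pcsk7 and Gm48529.

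The endothelial and mural genes were compared by their summed level. Summed over the 30 endothelial genes, the libraries stood at 159 and 202.7 CPM in NSD and 140.5 and 104.8 CPM in SD (180.8 ± 30.9 and 122.6 ± 25.3 CPM, s.d., n = 2). The sum over the 8 mural genes was 69.8 and 65.5 CPM in NSD and 61.9 and 52.2 CPM in SD (67.7 ± 3.03 and 57.1 ± 6.91 CPM). Both sums were lower in both SD libraries. The ratio of the endothelial to the mural sum was 2.28 and 3.09 in NSD and 2.27 and 2.01 in SD, so that NSD library 2 stood apart and the library 1 pair was nearly the same. The median log2 fold change was -0.61 for the endothelial and -0.22 for the mural genes. Without NSD library 2 these medians were -0.39 and -0.38, nearly the same, and without NSD library 1 they were -0.78 and -0.06. A log2 fold change under -1 was found for 5 of the 30 endothelial genes (16.7%) and 0 of the 8 mural genes, against 10.5% of all genes and 1.95% of the protein-coding genes. In other markers of the same cells the order was reversed, with a median of -0.37 over 19 endothelial and -0.60 over 13 mural markers. These differences between the lists were not tested.

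**Figure D3:**
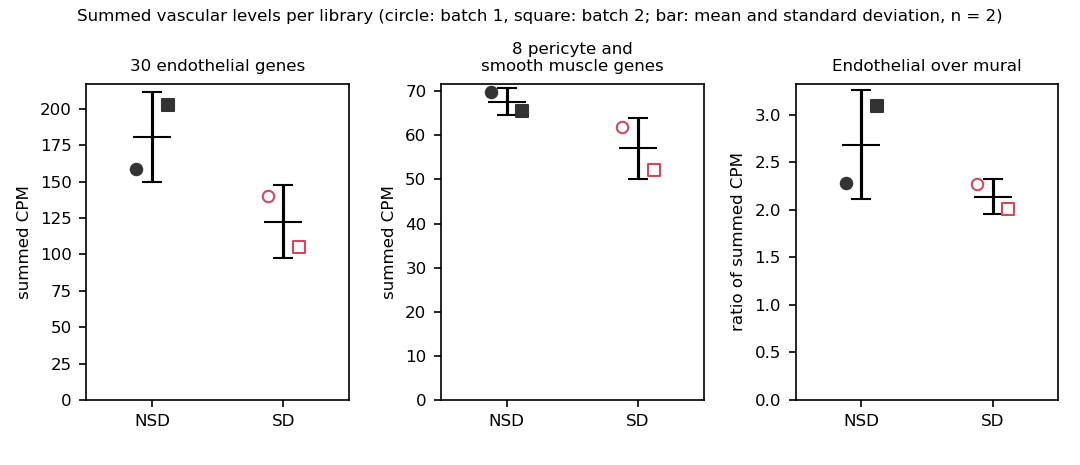
Summed CPM of the 30 endothelial genes and of the 8 mural genes, and the ratio of the sums, in each library; circles are batch 1, squares batch 2, and bars give the mean and standard deviation of the 2 libraries of a group. The endothelial sum runs from 202.7 CPM in NSD library 2 to 104.8 CPM in SD library 2, and the ratio of NSD library 2 (3.09) stands above the other 3 (2.01 to 2.28).

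Within batches, the median endothelial gene was lower in SD in both, by different amounts. In batch 1 the median difference in log2 CPM, SD minus NSD, was -0.20 over the 30 genes, with 23 of them below 0 and 7 above (Nostrin, Pecam1, Slc2a1, Ly6a, Erg, Esam and Egfl7). In batch 2 it was -1.08, with 29 below 0, and 22 genes were below 0 in both batches. For all genes tested, 36.5% were below 0 in both. The batch 2 difference was the lower of the 2 for 29 of the 30 endothelial genes and 56.0% of all genes. For Tie1 the differences were -0.67 and -1.91 in batches 1 and 2, for Tek -0.50 and -1.74, for Flt1 -0.32 and -1.34 and for Slco1a4 -0.49 and -2.19. Sox18 was the most even of the called transcription factors and receptors, at -0.65 and -0.98. The mural genes had a median of -0.30 in batch 1, with all 8 below 0, and of 0.07 in batch 2, with 3 below 0 (Pdgfrb, Rgs5 and Abcc9). Myh11, Acta2 and Tagln were below 0 in batch 1 and above 0 in batch 2.

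**Figure D4:**
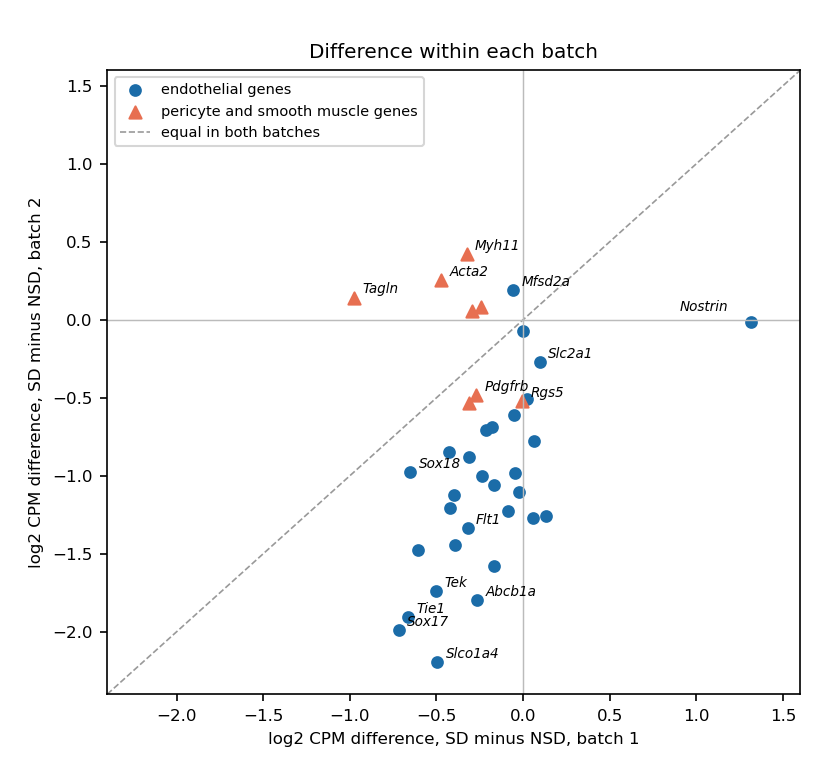
Difference in log2 CPM, SD minus NSD, within batch 1 (horizontal axis) and within batch 2 (vertical axis); blue circles are the 30 endothelial genes, orange triangles the 8 mural genes, and the dashed line marks equal differences. All but 1 of the endothelial genes (Mfsd2a) lie below the dashed line, with a median of -0.20 in batch 1 and -1.08 in batch 2, and 5 of the 8 mural genes lie above it.

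NSD library 2 was the highest and SD library 2 the lowest library for 23 of the 30 endothelial genes, compared with 8.05% of all genes, 7.49% of the protein-coding genes and 2 of the 8 mural genes. Choroid plexus, an epithelium beside the hippocampus with its own vessels, was also highest in NSD library 2 and lowest in SD library 2: its 8 listed markers summed to 61.6 and 134.1 CPM in NSD and 64.3 and 40.3 CPM in SD, and all 7 that were tested had a log2 fold change below 0 (median -0.76). Within batch 1 their median difference in log2 CPM was 0.67 with 3 of 7 below 0, and within batch 2 it was -2.44 with all 7 below 0. Of these, Kl was called without the block (edgeR adjusted p = 0.0405) and Kcnj13 with it (edgeR adjusted p = 0.0452). Without NSD library 2 the log2 fold change of Kl moved from -0.54 to -0.36 and that of Kcnj13 from -1.42 to -0.88. Transcripts of the annotation class TEC, loci that still await experimental evidence, held 0.273% and 0.210% of the counts in NSD and 0.157% and 0.118% in SD. The red blood cell genes that were counted summed to 2.24 and 1.203 CPM in NSD and 1.39 and 1.33 CPM in SD, with Hba-a1 at 0 in both SD libraries. The part of choroid plexus, TEC transcripts or blood in the vascular values was not tested.

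Perivascular fibroblasts are other cells of the vessel wall. The median log2 fold change of their 8 markers was 0.23, with 5 above 0 and 3 below, and 2 of them had each SD library below each NSD library while 4 had each above, beside 27.5% and 22% of all genes. Beside 2.99% of all genes called higher with the block, Col3a1 (0.57, edgeR adjusted p = 0.0141 with the block) and Dcn (0.33, edgeR adjusted p = 0.0224 with the block) were called higher with the block, and Dcn was at 0.20 without SD library 1. The 8 markers summed to 33.3 and 30.7 CPM in NSD and 40.5 and 37.6 CPM in SD, and the groups did not overlap. Microglia markers summed to 163.9 and 125.4 CPM in NSD and 171 and 124.1 CPM in SD, with 0 of 12 called in either direction.

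Further markers of the same cells were read from the same fits. Of 19 other endothelial markers, 16 were below 0 with a median log2 fold change of -0.37, and 3 were called lower with the block, beside 8.47% of all genes and 3.29% of the protein-coding genes. Cd34, a sialomucin of endothelium and progenitors, was at 25.8 and 27.5 CPM in NSD and 17.9 and 18.4 CPM in SD. The libraries of each group lay close together, and it was called without the block too (-0.56, standard error 0.080, edgeR adjusted p = 0.0328). The others were Cd93 (-0.59) and the chemokine Cxcl12 (-0.46), which were at -0.34 and -0.24 without SD library 2. Of 13 other mural markers, 11 were below 0 with a median of -0.60, and Atp13a5, a pericyte transporter, was called lower with the block (-0.79, edgeR adjusted p = 0.00791; -0.52 without SD library 2). The SD libraries were both under the NSD libraries for 9 of the 19 and 8 of the 13, beside 27.5% of all genes and 20% of the protein-coding genes. The difference between these lists and the members was not tested.

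Other genes of the pathways in which the members act were also counted. Of 67 such genes, 1 was called lower without the block and 7 with it, where the block called 8.47% of all genes and 3.29% of the protein-coding genes lower, and 0 were called higher in either fit. Their median log2 fold change was -0.09. Apcdd1, a Wnt target and inhibitor of brain endothelium, was the gene called without the block. It had 12.2 and 11.7 CPM in NSD and 8.82 and 7.94 CPM in SD, in 2 separate ranges (-0.51, standard error 0.11, edgeR adjusted p = 0.0476). This call was lost without NSD library 1 (edgeR adjusted p = 0.133), NSD library 2 (0.0665) or SD library 2 (0.138). Of the 13 genes of Wnt signalling at the barrier, the receptor gene Fzd6 (-0.58, and -0.34 without SD library 2) was called lower with the block beside it. The 8 ligands and co-receptors for VEGF and angiopoietin gave 0 calls, with a median of 0.05. Vegfa itself was at 28.1 and 26.9 CPM in NSD and 29.6 and 27.7 CPM in SD, and the difference was 0.06 on the log2 scale (standard error 0.077; adjusted p = 0.763 in edgeR). Angpt2, the angiopoietin that can block Tek, was at 0.899 and 0.624 CPM in NSD and 0.492 and 0.397 CPM in SD. It was apart between groups but not called (-0.78, edgeR adjusted p = 0.322; -0.46 without NSD library 1).

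In the other pathway lists, Jag1 (-0.53) was called lower with the block among 7 Notch genes, Foxq1 (-1.10, and -0.70 without SD library 2) among 10 other vascular transcription factors, the tricellular junction gene Lsr (-1.13) among 10 other junction genes, and the organic anion transporter gene Slc22a8 (-0.62) and the transferrin receptor gene Tfrc (-0.29) among 12 other barrier transporters. None of the 7 TGF-beta and PDGF genes was called with or without the block. Pdgfb, the endothelial ligand of Pdgfrb, was at 18.8 and 18.9 CPM in NSD and 17.2 and 15.8 CPM in SD. Its log2 fold change was -0.19 (edgeR adjusted p = 0.271, and 0.126 with the block). It was -0.12 without SD library 2 and -0.25 without SD library 1.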

How the data were processed

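RNA on HA-tagged ribosomes from CA1 was sequenced in 4 libraries, 2 per group, from a stranded total RNA kit. After quality trimming, the authors used STAR for alignment to GRCm39 (mm39 in the submitters' processing notes) and Partek's expectation-maximization quantification over Ensembl genes. The deposited values are estimated counts, not normalized. In 55.6% of the 28193 genes a value was not whole. Here the estimated counts were rounded, and those genes whose count exceeded 5 in all 4 libraries were fitted with edgeR 4.0.16 in R 4.3.3 (TMM factors 0.965 to 1.02, quasi-likelihood, condition only, common dispersion 0.0296, prior degrees of freedom 6.38) with Benjamini-Hochberg adjustment over all 22338 genes. Standard errors are the log2 fold change over the root of its F value. Single-library log2 values used a prior count of 2. Library totals were 162943863 and 153511705 (NSD) and 181914848 and 195910235 (SD), and p-values measure the spread between pools, to which counting error adds for members of low count such as Nostrin.

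The batch numbers in the labels pair the libraries. Across genes, the deviation from the group mean correlated at 0.178 between libraries that share a number. The pairing enters as a block in an alternative. The other alternatives were DESeq2 1.42.0, its size factors in edgeR, library totals, no count filter, filterByExpr, protein-coding genes only and leaving out each library. On simulated counts for 22225 genes of this comparison, edgeR called 54 of 100 genes with a log2 change of 1 in size and 100 of 100 with 2, with 6 false calls. With the block it called 56 and 100, with 8 false calls, and DESeq2 54 and 100, with 13. The simulated counts had the same dispersion for every gene and no batch effect, and only genes above a count minimum were changed. They therefore cannot show how often the fits, with or without the block, are right on the deposited counts.

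The members, the other lists and the tests were chosen with earlier results of these data known. Named are all members, the called genes of the pathway and other vascular lists, genes of other cell type lists called without the block, and some others named after their values were seen (Col3a1, Dcn, Gjb6, Sst, Camk2a, Wfs1, Vegfa, Angpt2, Pdgfb, Kcnj13, Hba-a1). Exon lengths and overlaps came from the GENCODE annotation of GRCm39. Of the 38 members, 18 share exon bases with another gene, 5 of them (Acta2, Eng, Nos3, Nostrin and Tagln) with a gene of at least 10% of their count. Promoters came from RefSeq on GRCm38.p6, and no coordinate was moved between builds. Some genes of the other cell type lists are not reported here.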

Additional observations from a re-analysis of the deposited data

How the results depend on the processing

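The direction of the median held under every alternative for both lists, from -0.93 to -0.39 for the endothelial and from -0.38 to -0.06 for the mural genes when each library was left out in turn. With the batch block in the pairing of the libraries, 1891 genes were called lower and 668 higher (520 and 172 without), among them 17 endothelial and 1 mural member lower. DESeq2 called 1296 lower and 671 higher, with 10 endothelial members lower. With library totals 96 genes were called higher and 1 endothelial member (Flt1) lower, and Myh11 went to -0.0279. Without a count filter 80 genes were called lower and 50 higher, with filterByExpr 0 and 1, and with protein-coding genes only 39 and 51, and no member was called in these 3. Leaving out 1 library gave 78 to 1955 genes lower and 124 to 308 higher, 0 to 18 endothelial and 0 to 2 mural members lower, and 4 to 8 mural members below 0, where the lone library of a group is assumed to vary like the others. Sign changes then occurred for Vtn (-0.45 to 0.25), Anpep (-0.27 to 0.14), Acta2 (-0.57 to 0.39), Slc2a1 (-0.17 to 0.0285), Egfl7 (-0.0856 to 0.0464), Myh11 (-0.20 to 0.34), Tagln (-0.93 to 0.0855), Mfsd2a (-0.10 to 0.25) and Ly6a (-0.93 to 0.22). The cause of these changes was not tested. The median over all genes moved between -0.08 and 0.01 over the alternatives.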

Other observations

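Markers of the tagged neurons and of other brain cells were read from the same fit. Wfs1, a marker of CA1 pyramidal cells, was at 390 and 440.6 CPM in NSD and 279.2 and 354.9 CPM in SD, and the groups did not overlap. It was called lower with the batch block in edgeR, and not without it. Its log2 fold change of -0.39 was -0.23 without SD library 1. Of the 9 CA1 pyramidal neuron markers, 6 were below 0 and 3 above, with a median log2 fold change of -0.29, and 5 were called lower with the block and 5 by DESeq2. Over all genes 8.47% were called lower with the block and 5.8% by DESeq2. Camk2a was at 4285 and 4338 CPM in NSD and 4090 and 4379 CPM in SD, an overlapping range. Over the 12 astrocyte markers the median log2 fold change was 0.07, with 9 above 0 and 3 below, and Gjb6, a gap junction connexin, was called higher with the block, as were 2.99% of all genes. Of 8 GABAergic interneuron markers, with a median of -0.04, 5 below 0 and 3 above, Sst was called lower with the block (-0.31, and -0.04 without SD library 2).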
